A study of Rattus norvegicus with 18 samples.

Results

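The genes of the proteasome, its regulatory particles and its activators were examined in rat H9C2 cells after microsecond electric pulses. Every protein-coding gene whose symbol begins with Psma, Psmb, Psmc, Psmd, Psme, Psmf or Psmg followed by a number was taken, which gave 48 of the 32545 genes in the deposited table. They comprise 8 Psma and 11 Psmb genes of the 20S core, 6 Psmc and 14 Psmd genes of the 19S particle, 3 Psme activators, the inhibitor Psmf1 and 4 Psmg assembly chaperones. The symbol rule also takes Psmc3ip, which encodes a meiotic recombination protein and no subunit; it is counted among the 48 but described apart. Psme3 was not analysed here. Of the 48 genes, 44 reached 1 FPKM (fragments per kilobase of gene length, scaled to library size) in at least 3 libraries and were tested.

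H9C2 is a single established line from embryonic rat heart tissue, and all groups are cultures of it. P_ES50 and P_ES10 cells received 50 or 10 pulses of 100 µs at 1500 V/cm together with PE, a compound that the labels name only by these letters, at 50 µmol/L for 48 h. P cells received PE without pulses, ES50 and ES10 cells received 50 or 10 pulses of the same kind without PE, and NC cells received neither. Each group has 3 libraries, 18 in all, and no source used here gives the time between the pulses and harvest. Replicates are only numbered, so the p-values measure the spread between these libraries, which may be technical. Of 12 cardiomyocyte markers, 7 stayed below 1 FPKM in every library, Myh6 and Actc1 among them, while Tnnt2 had a mean of 12.1 FPKM in NC cells. Of 8 myoblast markers, 4 stayed below 1 FPKM in every library, while Myod1 had a mean of 32.0 FPKM in NC cells. Of 7 fibroblast markers, 2 stayed below 1 FPKM in every library, while Col1a1 had a mean of 1449 FPKM in NC cells. The pan-leukocyte marker Ptprc had 0 FPKM in all 18 libraries.

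The proteasome degrades proteins that carry ubiquitin chains. Its 20S core is a barrel of alpha rings (Psma) that gate the chamber and beta rings (Psmb) that hold the proteolytic sites. The 19S particle binds ubiquitin, removes it and unfolds the substrate with a ring of ATPases (Psmc), assisted by the scaffold, receptor and lid subunits of the Psmd family. In many mammalian cells a loss of proteasome capacity is followed by joint induction of subunit genes through the transcription factor Nfe2l1, and in the heart the system is known for clearing damaged contractile and mitochondrial proteins. Interferon replaces the catalytic subunits Psmb5, Psmb6 and Psmb7 by Psmb8, Psmb9 and Psmb10 and raises the activator genes Psme1 and Psme2.

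Whole reads could be recovered from the FPKM, and each library had between 14004929 and 17247201 of them on annotated genes. Mitochondrially encoded genes took 92.1% of these reads in ES50 libraries and 48.6% in P_ES50 libraries, against 6.46%, 5.48%, 9.44% and 12.9% in P_ES10, P, ES10 and NC libraries (means, n = 3 each). Only 1230554 to 1466851 reads fell on nuclear genes in the ES50 libraries. The deposited FPKM make the median nuclear gene alike between libraries and so say nothing of the amount of nuclear RNA per cell. In bulk RNA, fewer cells and less RNA per cell cannot be told apart. The 48 proteasome genes took 0.578%, 0.571% and 0.646% of the nuclear reads at 0, 10 and 50 pulses with PE, and 0.585%, 0.566% and 0.738% without PE. The SD over 3 libraries was 0.0103%, 0.00378% and 0.00319% with PE and 0.00366%, 0.000903% and 0.00885% without. The ES50 libraries held the highest share and the P_ES50 libraries the next, with no overlap with the other 4 groups. Of all reads, mitochondrial ones included, the 48 genes took 0.0580% in ES50 libraries, against 0.509% in NC libraries.

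In untreated cells the subunits of a particle were not equally abundant. Per kilobase, the 7 expressed alpha subunits spanned a 3.27-fold range in NC cells, between Psma3 at 31.04 ± 0.913 FPKM and Psma7 at 101 ± 0.313 FPKM (SD, n = 3, as in all FPKM written with ±). After a log2 fold change or an interaction, ± gives the standard error (SE) by limma. The 6 ATPases spanned 3.05-fold, between Psmc6 at 31.3 ± 0.598 FPKM and Psmc1 at 95.5 ± 2.68 FPKM. Among the Psmd genes, Psmd10, which encodes the assembly chaperone gankyrin, had only 1.93 ± 0.561 FPKM, and Psmd8 had the highest level at 85.6 ± 4.75 FPKM. The tissue-restricted subunits were at the floor: Psma8 of the testis had at most 0.746 FPKM in any library, and Psmb11 of the thymus had at most 0.441 FPKM. In the 3 ES50 libraries Psmb11 had 0 reads, a count that allows up to 3 reads, and such floors cover counting error only.

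After 10 pulses 4 non-ATPase genes of the 19S particle, Psmd1, Psmd5, Psmd8 and Psmd11, rose both with and without PE, and the 6 ATPase genes were not called in either comparison. The ATPase gene Psmc6 also lay higher in both series, without overlap. It had 32.0, 31.8 and 33.6 FPKM in P_ES10 libraries, against 27.8, 27.4 and 28.2 FPKM in P libraries. Without PE it had 36.2, 35.2 and 35.1 FPKM in ES10 libraries, against 31.3, 30.7 and 31.9 FPKM in NC libraries. Its SD in the ES50 libraries of the shared fit was 8.13 FPKM. The log2 fold change was positive for 2 of the 6 ATPase genes in each comparison. A gene is called at an adjusted p under 0.05 in limma on log2(FPKM + 1), fitted to all 11917 tested genes, with Benjamini-Hochberg adjustment per comparison. Fold changes on this scale understate changes of low genes. In ES10 against NC cells, 4 of the 44 proteasome genes rose (9.09%) and 0 fell, against 6.36% and 2.21% of all tested genes (8.57% in either direction). In P_ES10 against P cells, 6 rose (13.6%) and 2 fell (4.55%), against 13.2% and 9.66% of all tested genes (22.9% in either direction). With nuclear-read scaling 1 rose and 5 fell without PE, and 4 rose and 6 fell with PE. Over all 11917 tested genes that scaling gave 356 higher and 620 lower without PE, and 1077 and 1672 with PE. With quantile normalization 3 rose and 5 fell without PE, and 4 rose and 7 fell with PE. Over all tested genes that normalization gave 699 higher and 534 lower without PE, and 1572 and 1642 with PE. The share of proteasome genes that rose under the deposited scaling was near that of all genes in both comparisons. The 4 genes that rose without PE are all among the 14 Psmd genes, and all 4 also rose with PE, as did 87.7% of the 758 genes of any kind that rose without PE. These 4 make up 66.7% of the 6 proteasome genes that rose with PE. Of the 1573 genes of any kind that rose with PE, 42.3% also rose without PE. The 2 comparisons share no library. The number that rose without PE was 2, 2 and 1 without NC replicate 1, ES10 replicate 1 and ES10 replicate 2. The number that fell with PE was 0, 1, 1 and 0 without P replicate 1, P replicate 3, P_ES10 replicate 2 and P_ES10 replicate 3.

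Psmd1 encodes a large scaffold subunit of the 19S base that docks ubiquitin receptors, and it lies at chr9:93080615-93155027 on the plus strand (Rnor 6.0). Psmd1 had 61.02, 60.7 and 58.8 FPKM in P_ES10 libraries, against 43.9, 45.3 and 46.7 FPKM in P libraries. Without PE it had 59.8, 59.7 and 58.8 FPKM in ES10 libraries, against 49.5, 49.3 and 47.4 FPKM in NC libraries. All pulsed libraries lay above all libraries of their control, with log2 fold changes of 0.40 (SE 0.05, adjusted p = 1.19e-05) with PE and 0.28 (SE 0.05, adjusted p = 0.000977) without PE by limma. Psmd1 kept both calls whichever library was left out.

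Psmd11 encodes a lid subunit (chr10:67810655-67857223, plus strand). It had 30.9, 30.2 and 29.9 FPKM in P_ES10 libraries, against 23.1, 23.1 and 23.99 FPKM in P libraries. Without PE it had 33.2, 33.3 and 31.2 FPKM in ES10 libraries, against 25.6, 26.7 and 26.97 FPKM in NC libraries. The groups did not overlap in either comparison, and the log2 fold changes by limma were 0.36 (SE 0.07, adjusted p = 0.00104) with PE and 0.29 (SE 0.07, adjusted p = 0.0123) without PE. The call without PE was lost, in limma, without NC replicate 1, ES10 replicate 1 or ES10 replicate 2 (adjusted p = 0.0562, 0.0534 and 0.0569).

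Psmd5 encodes a chaperone that guides assembly of the ATPase ring and leaves the mature particle (chr3:13916203-13933658, minus strand). It had 28.7, 29.5 and 28.6 FPKM in P_ES10 libraries, against 24.4, 22.9 and 22.6 FPKM in P libraries. Without PE it had 29.4, 32.9 and 32.6 FPKM in ES10 libraries, against 23.1, 26.6 and 25.5 FPKM in NC libraries. Again all pulsed libraries were above all libraries of their control, at log2 fold changes of 0.30 (SE 0.08, adjusted p = 0.00879) with PE and 0.32 (SE 0.08, adjusted p = 0.0139) without PE by limma. The call without PE was lost, in limma, without NC replicate 1, ES10 replicate 2 or ES10 replicate 3 (adjusted p = 0.0744, 0.0689 and 0.0625).

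Psmd8, which encodes another lid subunit (chr1:88116812-88123643, minus strand), had 95.8, 97.04 and 94.9 FPKM in P_ES10 libraries, against 77.00, 75.2 and 79.3 FPKM in P libraries. Without PE it had 102, 103 and 96.2 FPKM in ES10 libraries, against 90.3, 80.8 and 85.8 FPKM in NC libraries. The groups did not overlap, and the log2 fold changes by limma were 0.31 (SE 0.06, adjusted p = 0.00114) with PE and 0.23 (SE 0.06, adjusted p = 0.0222) without PE. The call without PE was lost, in limma, without NC replicate 2, NC replicate 3, ES10 replicate 1 or ES10 replicate 2 (adjusted p = 0.113, 0.0667, 0.0788 and 0.0965). With values scaled to nuclear reads, Psmd1 alone of the 4 stayed called without PE, at adjusted p = 0.0223 by limma, against 0.0708 for Psmd5, 0.168 for Psmd8 and 0.0887 for Psmd11. Psmd9, an assembly chaperone of the ATPase ring, also rose with PE (0.21, SE 0.07, adjusted p = 0.0492 by limma), a call lost without any P library or P_ES10 replicate 2 or 3 (adjusted p 0.0639 to 0.179). The plot of levels by library shows these 4 genes beside 4 others.

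**Figure D1:**
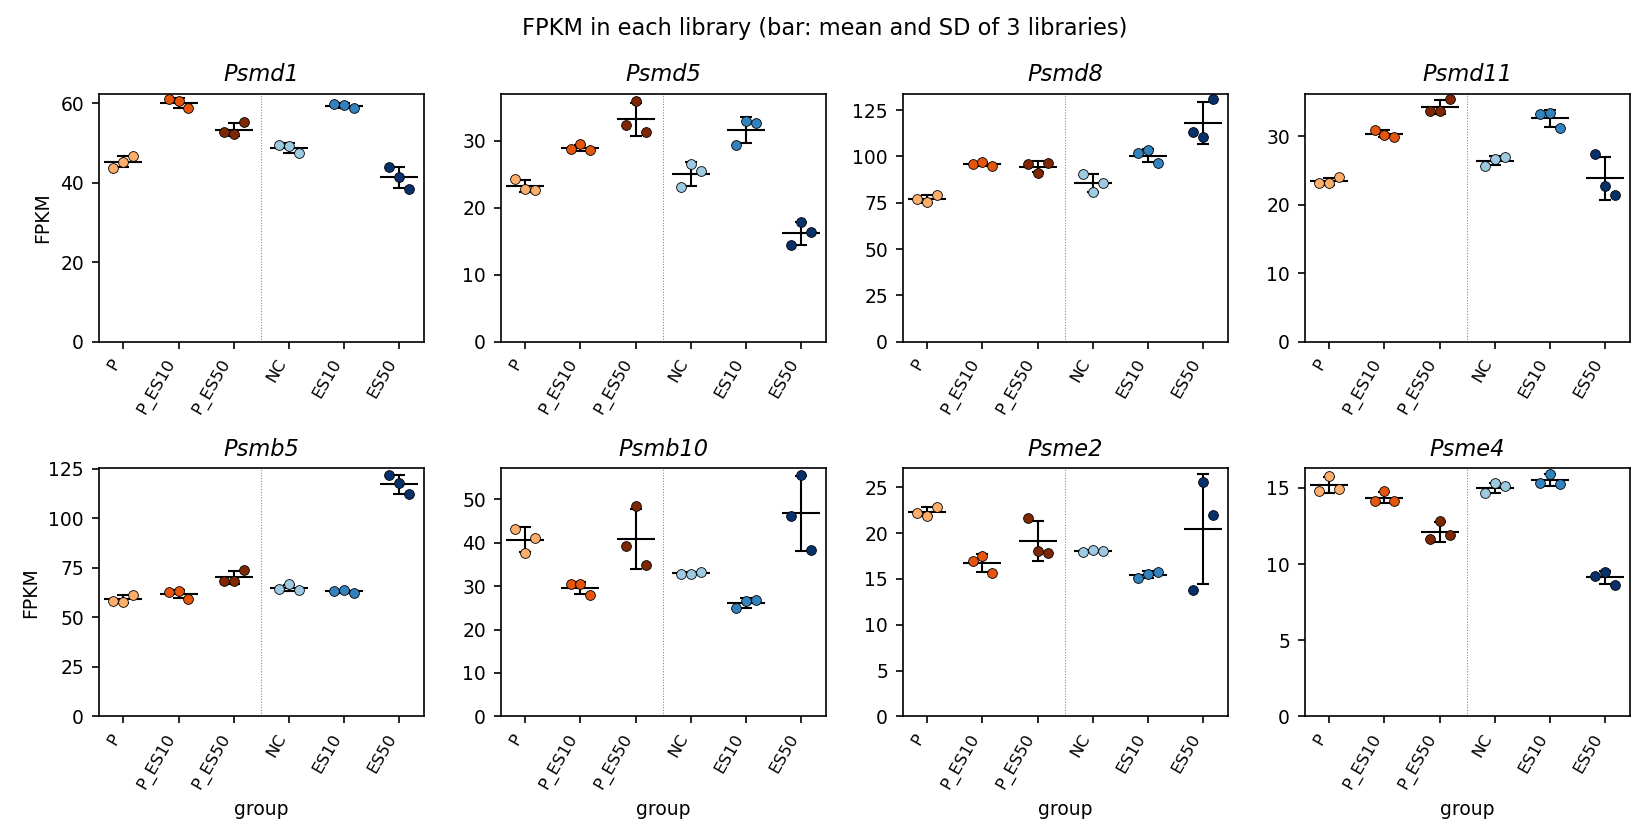
FPKM of 8 proteasome genes (vertical axes, linear, from 0) in each of the 18 libraries, by group; points are libraries and bars are the mean and SD of 3. Psmd1, Psmd5, Psmd8 and Psmd11 lie higher at 10 pulses than at 0 pulses in both series, Psmb5 is far higher in ES50 than in all other groups under the deposited scaling, and Psme4 is lowest in ES50 libraries.

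The promoters of these 4 genes are shown because they moved together. Each line holds the 250 bases before the RefSeq start site in build GRCr8, 5′ to 3′ on the strand of the gene, and capitals mark antioxidant response elements, the kind of site at which Nfe2l1 and Nfe2l2 are known to bind. The letters searched were TGACNNNGC and TGAGNNNGC on both strands, so that a site on the other strand appears as its reverse complement. The windows lie at chr9:94157721-94157970 (plus strand) for Psmd1, chr3:38548491-38548740 (minus strand) for Psmd5, chr1:93608690-93608939 (minus strand) for Psmd8 and chr10:65932093-65932342 (plus strand) for Psmd11.
Psmd1: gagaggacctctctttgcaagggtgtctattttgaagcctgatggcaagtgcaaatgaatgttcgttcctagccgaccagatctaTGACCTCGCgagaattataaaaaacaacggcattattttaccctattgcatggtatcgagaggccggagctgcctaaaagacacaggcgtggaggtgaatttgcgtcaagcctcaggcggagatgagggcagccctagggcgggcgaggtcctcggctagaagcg
Psmd5: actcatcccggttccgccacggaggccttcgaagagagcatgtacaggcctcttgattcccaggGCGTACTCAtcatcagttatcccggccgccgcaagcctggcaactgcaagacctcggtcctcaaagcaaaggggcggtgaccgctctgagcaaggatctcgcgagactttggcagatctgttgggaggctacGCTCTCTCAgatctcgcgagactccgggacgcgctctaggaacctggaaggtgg
Psmd8: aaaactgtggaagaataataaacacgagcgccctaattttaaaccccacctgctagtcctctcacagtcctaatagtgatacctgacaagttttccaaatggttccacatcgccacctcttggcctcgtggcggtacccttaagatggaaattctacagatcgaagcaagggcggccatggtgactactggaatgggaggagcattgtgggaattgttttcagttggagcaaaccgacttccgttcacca
Psmd11: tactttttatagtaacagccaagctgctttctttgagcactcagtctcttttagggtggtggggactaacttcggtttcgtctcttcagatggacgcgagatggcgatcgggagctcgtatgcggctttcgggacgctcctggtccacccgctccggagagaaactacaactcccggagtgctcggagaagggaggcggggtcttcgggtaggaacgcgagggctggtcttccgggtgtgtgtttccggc

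Psmd1 held 1 such site, at position -165 from the start, and Psmd5 held 2, at -186 and -54, both on the other strand. The windows of Psmd8 and Psmd11 held 0. RefSeq windows were matched for 43 of the 48 genes (not for Psma7, Psmb11, Psmd6, Psmd12 and Psmd14), and 15 of these 43 (34.9%) held the letters at least once, against 22.8% of 24206 rat promoters of the same length. The CCAAT box was present in 20 of 43 (46.5%), against 34.4%, and the heat shock motif GAANNTTC, which reads the same on both strands, in 3 of 43 (6.98%), against 6.94%. Psmd1 held the heat shock letters once, at position -194, upstream of the marked site. Hits of different motifs overlapped in 1 place, in Psmb2. A match of letters is a description of the window and no evidence of binding.

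Of the 20S genes, 0 of the 16 tested were called in ES10 against NC cells by limma. Over all 44 genes, 7 had an unadjusted p under 0.05 there by limma, 6 higher and 1 lower. No share of all tested genes was taken at that unadjusted threshold, so this count has no background beside it. Among the 44, limma voom on the recovered reads called 7 higher and 2 lower, while nuclear-read scaling gave 5 lower. Over all 11917 tested genes voom called 1890 higher and 944 lower. In P_ES10 against P cells 1 of the 16 rose and 2 fell. The gene that rose was Psma1, an alpha ring subunit, with 123, 124 and 119.7 FPKM in P_ES10 libraries, against 102, 105 and 105 FPKM in P libraries. The groups did not overlap, and the log2 fold change was 0.23 (SE 0.08, adjusted p = 0.0418) by limma, but leaving out any 1 of the 6 libraries ended the call, with adjusted p from 0.0759 to 0.122. Psmb6, the subunit with caspase-like activity, fell to 51.2, 48.2 and 49.2 FPKM in P_ES10 libraries, against 60.3, 52.99 and 63.2 FPKM in P libraries. All P_ES10 libraries lay below all P libraries, and the log2 fold change was -0.24 (SE 0.07, adjusted p = 0.025) by limma. That call was lost without P replicate 1 or 3, or P_ES10 replicate 2 or 3 (limma, adjusted p = 0.0876, 0.117, 0.0843 and 0.0723). Psmb5, which carries the chymotrypsin-like site, had 62.5, 63.3 and 59.2 FPKM in P_ES10 libraries, against 58.1, 57.6 and 61.5 FPKM in P libraries, and 63.2, 63.5 and 62.4 FPKM in ES10 libraries, against 64.4, 66.6 and 63.6 FPKM in NC libraries. These levels overlapped with PE, and the log2 fold changes of 0.06 (SE 0.04, adjusted p = 0.355) with PE and -0.04 (SE 0.04, adjusted p = 0.7) without PE were not called by limma.

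The balance of core to cap can be read within a library, where the scaling between libraries has no part. The log2 ratio of the summed FPKM of the 19 core genes to that of the 20 Psmc and Psmd genes was -0.04, -0.01 and -0.07 in P_ES10 libraries, against 0.04, 0.01 and 0.08 in P libraries. Without PE it was -0.08, -0.06 and -0.02 in ES10 libraries, against 0.03, 0.02 and 0.01 in NC libraries. All libraries with 10 pulses were below all libraries of their control, so the summed Psmc and Psmd level was higher relative to the core there. Within the cap only the Psmd sum was higher by mean under the deposited scaling. It was 672 FPKM in P_ES10 cells, against 606 in P cells, and 670 in ES10 cells, against 619 in NC cells. The Psmc sum was 366 FPKM in P_ES10 cells, against 374 in P cells, and 365 in ES10 cells, against 372 in NC cells. Of the nuclear reads, the cap genes took 0.342% in P_ES10, against 0.335% in P, and 0.341% in ES10, against 0.343% in NC libraries (means). The core genes took 0.194%, against 0.202%, and 0.190%, against 0.203%. Whether the cap rose or the core fell thus depends on the scaling. The Psmd genes include the assembly chaperones Psmd5, Psmd9 and Psmd10. At 50 pulses the ratio was 0.02, 0.03 and 0.02 in P_ES50 libraries and 0.35, 0.31 and 0.39 in ES50 libraries. The ES50 libraries stood above all others, and the P_ES50 libraries lay within the range of the P libraries. These ratios are sums over genes chosen with earlier results of these data known and carry no test. Fold changes at 10 pulses also correlated with gene length, as given below, so role and length cannot be told apart here.

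**Figure D2:**
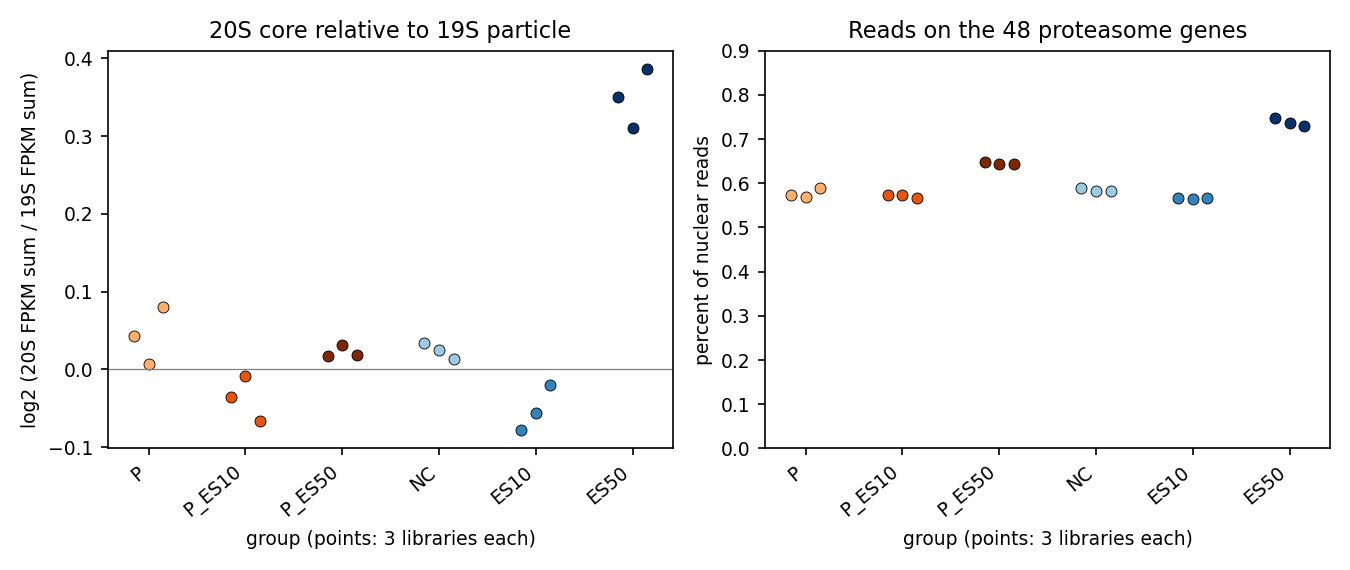
Left, log2 ratio of the summed FPKM of 19 core genes (20S) to 20 cap genes (19S) in each library; right, the percent of nuclear reads on all 48 proteasome genes, from 0; points are the 3 libraries of each group. Libraries with 10 pulses lie below their controls on the left, and the ES50 libraries lie highest on both sides.

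Genes that act beside the proteasome were examined as lists, whose counts stand against 13.2% of all tested genes higher and 9.66% lower with PE, and 6.36% and 2.21% without PE. Zfand2a, whose product binds the proteasome under proteotoxic stress, averaged 214 ± 3.81 FPKM in P_ES10 cells, against 79.4 ± 2.86 FPKM in P cells, and 199 ± 4.28 FPKM in ES10 cells, against 112 ± 1.85 FPKM in NC cells. Its log2 fold changes were 1.42 (SE 0.08, adjusted p = 1.24e-08) with PE and 0.83 (SE 0.08, adjusted p = 1.28e-05) without PE by limma, and the response was larger with PE by 0.59 (SE 0.12, adjusted p = 0.0215). The interaction was lost, in limma, when any 1 of 8 of its 12 libraries was left out (NC replicates 1 and 2, ES10 replicates 1 and 3, P replicates 1 and 3, P_ES10 replicates 1 and 3), with adjusted p between 0.0513 and 0.0669. Zfand5, a related protein that activates the proteasome, rose by 0.36 ± 0.05 with PE and 0.25 ± 0.05 without PE (log2, SE), and Vcp, the ATPase that extracts ubiquitinated proteins, by 0.24 ± 0.03 and 0.25 ± 0.03. With PE and without PE, 4 and 2 of the 12 tested proteasome-associated genes rose, and 1 and 0 fell. Of the 5 tested genes that control proteasome transcription, 2 rose with PE (Vcp and Nfe2l2) and 1 without PE (Vcp), while Ddi2, the protease that activates Nfe2l1, fell in both, with log2 fold changes of -0.42 ± 0.08 and -0.30 ± 0.08. Ddi2 without PE lost its call in limma when any 1 of the 6 libraries was left out (adjusted p 0.0630 to 0.126). Nfe2l1 itself had a log2 fold change of -0.05 (SE 0.05, adjusted p = 0.518) with PE and 0.04 (SE 0.05, adjusted p = 0.76) without PE and was not called by limma. Of 11 tested genes for ubiquitin and its shuttles, 4 rose and 1 fell with PE and 2 rose without PE, among them Ubqln2 (0.40 ± 0.07 and 0.28 ± 0.07) and Nploc4, a cofactor of Vcp (0.31 ± 0.06 and 0.26 ± 0.06), in both comparisons. Without PE the call of Ubqln2 was lost in limma without NC replicate 1 or 3 or any ES10 library (adjusted p 0.0689 to 0.115), and that of Nploc4 without NC replicate 1 or 2 or ES10 replicate 2 or 3 (adjusted p 0.0592 to 0.0732).

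Psmb10, the trypsin-like immunoproteasome subunit, fell to 30.5, 30.5 and 28.03 FPKM in P_ES10 libraries, against 43.3, 37.6 and 41.2 FPKM in P libraries. Without PE it had 24.9, 26.6 and 26.9 FPKM in ES10 libraries, against 32.8, 32.8 and 33.2 FPKM in NC libraries. All pulsed libraries lay below all libraries of their control. The log2 fold change was -0.44 (SE 0.12, adjusted p = 0.0123) with PE by limma, a call that was lost without P replicate 1 (adjusted p = 0.0549) or P_ES10 replicate 3 (adjusted p = 0.0538). Without PE it was -0.32 (SE 0.12, adjusted p = 0.112) by limma and not called. Psmb10 varied most among the ES50 libraries, and with these 3 libraries out of the fit, a choice made after seeing the data, the change without PE had an adjusted p of 0.0213 in limma. That fit called 2574 of all 11917 tested genes in ES10 against NC cells, against 1021 with all 18 libraries.

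Psme2, the beta subunit of the 11S activator, had the same order of group means as Psmb10 in the groups with 0 or 10 pulses. It had 16.97, 17.5 and 15.6 FPKM in P_ES10 libraries, against 22.2, 21.9 and 22.8 FPKM in P libraries. Without PE it had 15.1, 15.6 and 15.8 FPKM in ES10 libraries, against 17.9, 18.1 and 18.1 FPKM in NC libraries. The groups did not overlap, yet the log2 fold changes of -0.40 (SE 0.15, adjusted p = 0.0629) with PE and -0.21 (SE 0.15, adjusted p = 0.494) without PE were not called by limma. With the ES50 libraries out of the fit the adjusted p with PE was 0.000218 in limma. That fit called 4716 of all 11917 tested genes in P_ES10 against P cells, against 2724 with all 18 libraries. The ES50 libraries themselves had 13.8, 25.6 and 21.9 FPKM and overlapped with every other group. Psme1, the partner of Psme2 in the activator ring, had 17 reads over all 18 libraries, and the highest value was 1.28 FPKM in an ES50 library. The annotated genes lie at chr15:34256071-34258947 and chr15:34265557-34269851 on opposite strands, 6609 bases apart. Whether reads of Psme1 were lost or split in counting cannot be told from FPKM, so its low value is no statement on its expression.

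The other immunoproteasome subunits were scarce. Psmb8 made up at most 0.608% of the summed FPKM of Psmb8 and Psmb5 in any library, and Psmb9 made up at most 4.14% of the sum of Psmb9 and Psmb6. Psmb10, by contrast, made up 50.2, 46.1 and 44.96% of the sum of Psmb10 and Psmb7 in P_ES10 libraries, against 55.4, 53.1 and 58.9% in P libraries. Without PE the share was 42.8, 44.2 and 46.1% in ES10 libraries, against 48.9, 49.4 and 48.6% in NC libraries. The 3 inducible catalytic genes were therefore at very different levels beside their constitutive partners, and Psmb10 was near Psmb7 in FPKM. The 7 immune cell markers together had 3.62 to 5.19 FPKM in P_ES10 libraries, against 2.49 to 2.64 in P libraries, and 3.94 to 4.46 FPKM in ES10 libraries, against 2.30 to 2.74 in NC libraries, with Ptprc at 0 throughout. Psmb9 had 0.771, 0.861 and 1.04 FPKM in ES10 libraries, against 1.25, 1.83 and 1.92 FPKM in NC libraries, a difference that was not called (-0.49, SE 0.41, adjusted p = 0.604 by limma).

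The upstream windows of Psmb10 and Psme2 are shown because these genes shared a pattern. Capitals mark the interferon response letters, GAAA followed by any 2 bases and GAAA again, searched on both strands in the 250 bases before the RefSeq start site (GRCr8). The windows are chr19:50743293-50743542 (minus strand) for Psmb10 and chr15:33052752-33053001 (minus strand) for Psme2.
Psmb10: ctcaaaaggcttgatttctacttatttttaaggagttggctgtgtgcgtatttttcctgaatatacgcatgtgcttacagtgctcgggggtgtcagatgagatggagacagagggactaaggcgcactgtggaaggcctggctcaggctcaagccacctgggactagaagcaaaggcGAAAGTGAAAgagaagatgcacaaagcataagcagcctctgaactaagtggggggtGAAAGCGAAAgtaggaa
Psme2: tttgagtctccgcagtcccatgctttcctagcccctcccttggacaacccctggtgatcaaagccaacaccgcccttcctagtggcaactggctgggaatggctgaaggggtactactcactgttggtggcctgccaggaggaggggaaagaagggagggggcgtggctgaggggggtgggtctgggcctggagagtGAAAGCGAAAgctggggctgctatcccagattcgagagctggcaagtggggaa

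Psmb10 held the letters at positions -73 and -17 and Psme2 held them at -53. They occurred in 5 of the 43 matched proteasome windows (11.6%), against 3.32% of all promoters; the other 3 were Psma4, Psmb3 and Psmd7. In P_ES10 against P cells the log2 fold changes of Psma4, Psmb3 and Psmd7 were -0.09 ± 0.06, -0.09 ± 0.07 and 0.09 ± 0.04 (SE), none of them called by limma, and their difference from Psmb10 was not tested.

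Among 11 tested identifiers for antigen processing and interferon signalling (Tap2 appears under 2 identifiers), 3 fell in P_ES10 against P cells, against 9.66% of all tested genes. The other 8 were not called, and the log2 fold change was positive for 3 of the 11. Stat2 and Irf9, which are parts of the complex that reads interferon sites, fell, with log2 fold changes of -0.66 ± 0.09 and -0.66 ± 0.14 (SE; adjusted p = 0.00012 and 0.00311 by limma). In ES10 against NC cells their log2 fold changes were -0.26 (SE 0.09, adjusted p = 0.113) and -0.07 (SE 0.14, adjusted p = 0.862) and were not called by limma.

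No proteasome gene was called after PE alone. In P against NC cells limma called 0 of 44 genes, against 4.72% of all genes higher and 4.81% lower (9.53% in either direction). At an unadjusted p under 0.05 there were 7, of which 3 were higher and 4 lower. No share of all tested genes was taken at that unadjusted threshold. Among the 44, limma voom on the recovered reads called 3 higher and 5 lower. Over all 11917 tested genes voom called 1811 higher and 1722 lower. Psmb10 had the largest positive difference, with 43.3, 37.6 and 41.2 FPKM in P libraries, against 32.8, 32.8 and 33.2 FPKM in NC libraries, and the groups did not overlap (log2 fold change 0.29, SE 0.12, adjusted p = 0.134 by limma). Psme2 had 22.2, 21.9 and 22.8 FPKM in P libraries, against 17.9, 18.1 and 18.1 FPKM in NC libraries, again without overlap (log2 fold change 0.29, SE 0.15, adjusted p = 0.25 by limma). With the ES50 libraries out of the fit the adjusted p was 0.0279 for Psmb10 and 0.00394 for Psme2 in limma. That fit called 3200 of all 11917 tested genes here, against 1136 with all 18 libraries, so the smaller p is not particular to these genes. By group mean both genes were highest in P cells among the 4 groups with 0 or 10 pulses. In the antigen-processing list 3 of 11 rose and 0 fell: Tap1, a peptide transporter, by 0.35 ± 0.07, B2m, the light chain of MHC class I, by 0.18 ± 0.04, and Stat2 by 0.40 ± 0.09. Stat2 lost its call in limma without NC replicate 1, P replicate 2 or P replicate 3 (adjusted p = 0.0645, 0.0546 and 0.0611). In the other lists 1 of 12 proteasome-associated genes (Zfand2a, -0.49), 2 of 5 control genes (Nfe2l1, -0.18, and Nfe2l2, -0.18) and 1 of 11 ubiquitin genes (Nploc4, -0.23) fell on the log2 scale. Nfe2l1 lost its call in limma without NC replicate 1 or 2 or P replicate 2 or 3 (adjusted p 0.0777 to 0.0949). Nfe2l2 lost it without any NC library or P replicate 1 or 3 (0.0511 to 0.0829), and Nploc4 without any of the 6 libraries (0.0563 to 0.113).

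After 50 pulses without PE, proteasome genes formed a larger share of the nuclear RNA. In ES50 against NC cells 33 of 44 genes rose (75.0%) and 4 fell (9.09%) under the deposited scaling, against 31.9% and 40.1% of all tested genes (72% in either direction). All 44 fell when values were scaled to total reads, as did 11471 of all 11917 tested genes. Scaling to total reads shifted the median gene by -2.43 on the log2 scale, so that the directions given here are relative to the median nuclear gene. The median log2 fold change was 0.46 over the 44 genes, against -0.13 over all genes. Under the deposited scaling all 7 tested alpha genes rose, 8 of 9 beta genes, 5 of 6 ATPase genes and 8 of 14 Psmd genes, while 3 Psmd genes fell. With quantile normalization 19 of 44 rose and 10 fell, against 4399 and 3828 of all 11917 tested genes. Sums over marker lists of cell types moved too. The summed FPKM of the 12 cardiomyocyte markers was 51.0 to 58.1 in ES50 libraries, against 17.4 to 18.96 in NC libraries. That of 7 fibroblast markers was 547 to 574 in ES50 libraries, against 2380 to 2466 in NC libraries. The 8 myoblast markers summed to 88.7 to 98.2 FPKM in ES50 libraries, against 127.8 to 128.3 in NC libraries. Single markers of a list went both ways. Among myoblast markers Cdh15 averaged 14.6 FPKM in ES50 cells, against 85.4 in NC cells, but Myod1 57.5, against 32.0. Among cardiomyocyte markers Tnnt2 averaged 40.2 FPKM in ES50 cells, against 12.1 in NC cells, but Tnni3 0.512, against 2.18. The part of these shifts and of the mitochondrial share in the counts was not tested.

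Of the 16 tested core genes 15 rose and 0 fell under the deposited scaling. Psmb5 had 122, 117 and 112 FPKM in ES50 libraries, against 64.4, 66.6 and 63.6 FPKM in NC libraries. The groups did not overlap, with a log2 fold change of 0.84 (SE 0.04, adjusted p = 8.33e-11) by limma. Psmb4, a structural beta subunit, changed by 0.95 ± 0.05, Psmb1, another structural one, by 0.73 ± 0.05, and the alpha subunits Psma7 and Psma2 by 0.85 ± 0.06 and 0.54 ± 0.05 (log2, SE, all called by limma under the deposited scaling). Among the ATPases, Psmc1 had 153, 166 and 159.5 FPKM in ES50 libraries, against 97.2, 96.9 and 92.4 FPKM in NC libraries. Its log2 fold change was 0.73 (SE 0.04, adjusted p = 2.32e-10) by limma, and that of Psmc3 was 0.52 ± 0.07. Psmc6 was the exception among the ATPases, with 40.5, 38.2 and 25.4 FPKM in ES50 libraries, which overlapped with 31.3, 30.7 and 31.9 FPKM in NC libraries, and was not called (0.12, SE 0.11, adjusted p = 0.361 by limma).

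Within the Psmd family the genes went in opposite directions. Psmd9 had 42.3, 50.9 and 45.00 FPKM in ES50 libraries, against 25.6, 27.5 and 26.98 FPKM in NC libraries. Psmd5, a chaperone of the same ring, had 14.5, 17.9 and 16.3 FPKM in ES50 libraries, against 23.1, 26.6 and 25.5 FPKM in NC libraries. Neither pair of groups overlapped, and Psmd9 rose by 0.76 (SE 0.07, adjusted p = 1.24e-07) while Psmd5 fell by 0.60 (log2 fold change -0.60, SE 0.08, adjusted p = 3.16e-06 by limma). Within each library the log2 ratio of Psmd5 to Psmd9 was -1.55, -1.51 and -1.46 in ES50 libraries, against -0.15, -0.05 and -0.08 in NC libraries, a contrast that no scaling between libraries can make. It was 0.32, 0.32 and 0.41 in ES10 libraries, on the other side of the NC values. With PE it was 0.15, -0.03 and -0.06 in P_ES10 libraries, against -0.07, -0.08 and -0.07 in P libraries. In P_ES50 libraries it was 0.26, 0.29 and 0.18, above the P libraries and not below them. In ES50 against NC cells the lid subunits Psmd7 and Psmd8 rose by 0.50 ± 0.04 and 0.46 ± 0.06, whereas the scaffold Psmd1 and the lid subunit Psmd3 fell, with log2 fold changes of -0.23 (SE 0.05, adjusted p = 0.000243) and -0.12 (SE 0.04, adjusted p = 0.0212) by limma. Psmd3 lost its call in limma without NC replicate 1 or 3, or ES50 replicate 2 or 3 (adjusted p = 0.0647, 0.0831, 0.0579 and 0.056).

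Psme4, the large activator PA200, fell to 9.22, 9.48 and 8.66 FPKM in ES50 libraries, against 14.7, 15.3 and 15.1 FPKM in NC libraries. The groups did not overlap, and its log2 fold change of -0.66 (SE 0.05, adjusted p = 1.2e-08) by limma was the lowest of the 44. Psmf1, an inhibitor and adaptor of the core, had 33.9, 33.8 and 34.7 FPKM in ES50 libraries, against 18.3, 18.98 and 17.6 FPKM in NC libraries, with a log2 fold change of 0.87 (SE 0.06, adjusted p = 5.88e-09) by limma. Of the 4 core assembly chaperones 3 rose: Psmg3 had 51.1, 39.3 and 58.5 FPKM in ES50 libraries, against 16.6, 18.3 and 16.2 FPKM in NC libraries, and the log2 fold change of 1.47 (SE 0.12, adjusted p = 1.59e-08) by limma was the highest of all 44. Psmg4 and Psmg1 rose by 1.24 ± 0.17 and 0.84 ± 0.06, and Psmg2 was not called (0.00, SE 0.09, adjusted p = 0.981 by limma). The ES50 values of Psmg3 and Psmg4 rest on 281 and 140 reads over the 3 libraries, and those of Psmg4 ranged from 24.4 to 46.9 FPKM. Psmc3ip rose by 1.38 ± 0.13, on 73 reads.

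**Figure D3:**
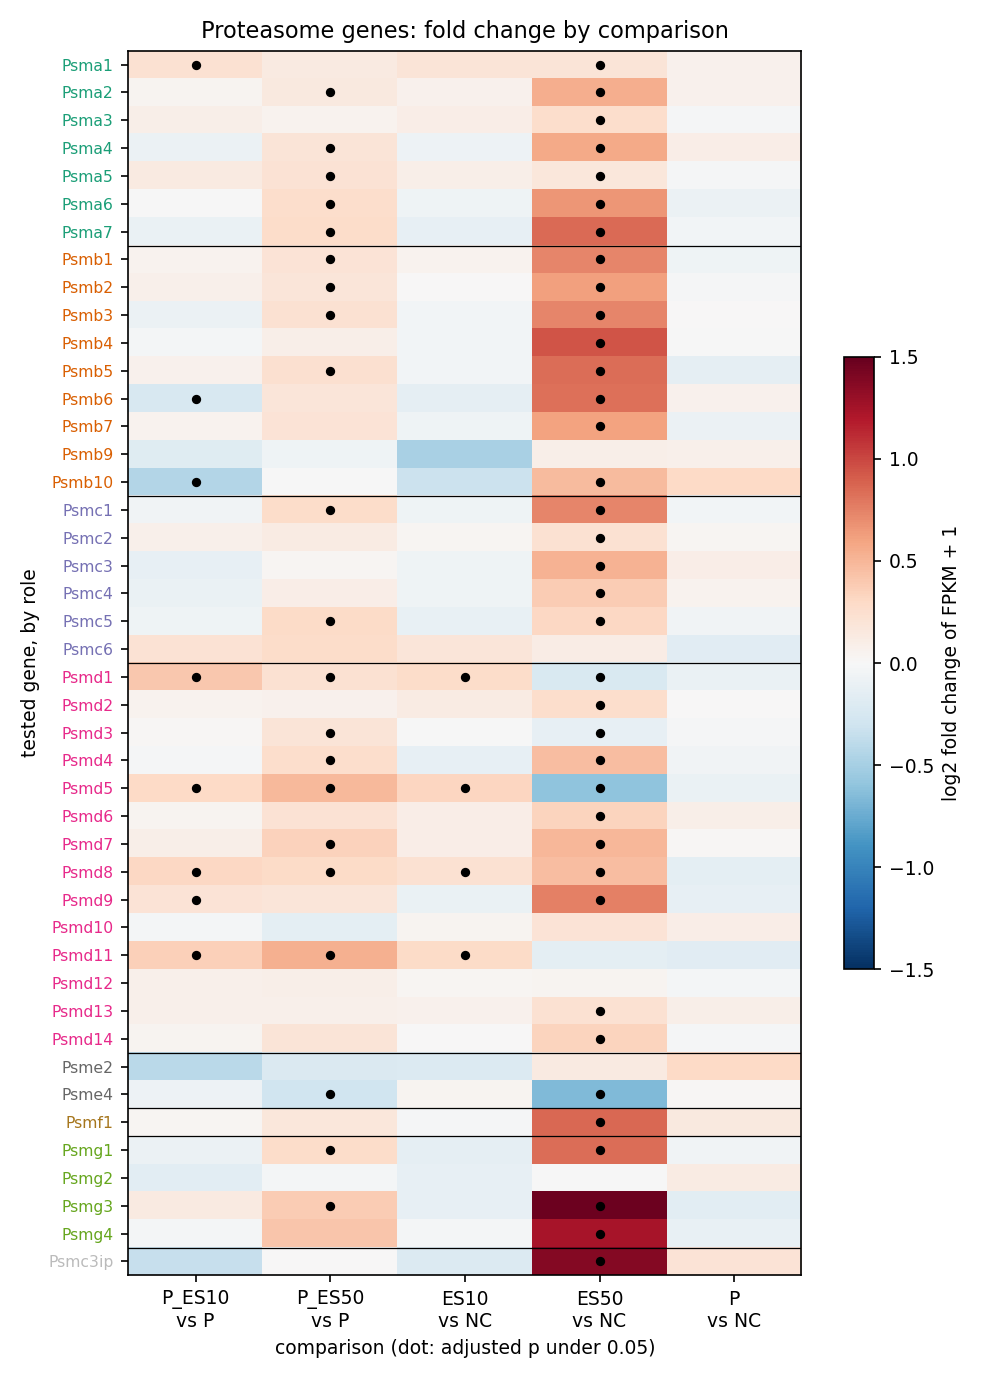
Log2 fold change of FPKM + 1 (colour) of the 44 tested proteasome genes (rows, coloured and divided by role) in 5 comparisons (columns); dots mark an adjusted p under 0.05 in limma. In ES50 against NC the core rows are red and Psmd1, Psmd3, Psmd5 and Psme4 are blue under the deposited scaling (all rows fell with total-read scaling), whereas 10 pulses left most rows near 0.

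The fold change at 50 pulses followed gene length, which is the length the authors used for FPKM. Across the 44 genes the Spearman correlation of length with the ES50 fold change was -0.66, against -0.25 across 11883 nuclear genes; these are correlations across genes of the same libraries and carry no test. The 12 proteasome genes under 1000 bases had a median log2 fold change of 0.84, the 24 from 1000 to under 2000 bases 0.42, the 7 from 2000 to under 4000 bases -0.12, and Psme4, with 7130 bases, -0.66. For all nuclear genes the medians of the same bins were 0.13, 0.23, -0.20 and -0.56. Short proteasome genes thus lay above short genes in general, and long ones near long genes in general. Roles are not spread evenly over lengths, since most beta genes are shorter than most Psmd genes, so role and length cannot be told apart here. At 10 pulses the correlation had the other sign, at 0.46 in ES10 against NC cells and 0.36 in P_ES10 against P cells. Across nuclear genes it was 0.06 and -0.02. Proteasome genes from 2000 to under 4000 bases had medians of 0.18 and 0.22, against -0.05 and -0.03 under 1000 bases. Role and length cannot be told apart at 10 pulses either.

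**Figure D4:**
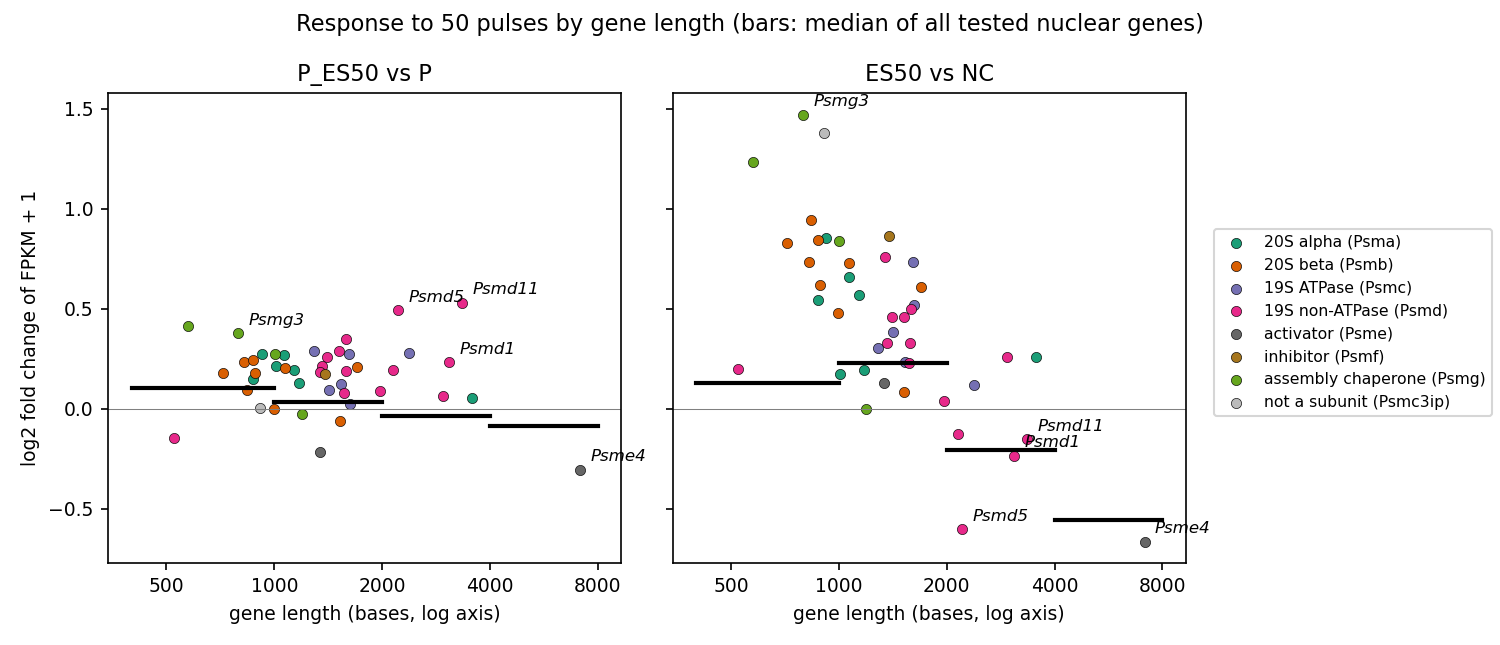
Log2 fold change of each tested proteasome gene (points, coloured by role) against gene length on a log axis, for P_ES50 against P (left) and ES50 against NC (right); black bars give the median of all tested nuclear genes in each length bin. Points fall with length on the right (Spearman -0.66) and not on the left (-0.03).

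With PE as well, more proteasome genes were called higher than lower after 50 pulses relative to the median nuclear gene. In P_ES50 against P cells 20 of 44 genes rose (45.5%) and 1 fell (2.27%) under the deposited scaling, against 14.1% and 14.2% of all tested genes (28.3% in either direction), whereas all 44 fell with scaling to total reads and 11 rose and 1 fell with quantile normalization. Total-read scaling shifted the median gene by -0.77 and called 90 of the 11917 tested genes higher and 10461 lower. Quantile normalization called 1584 of the 11917 higher and 1870 lower. Under the deposited values the 44 genes had a median log2 fold change of 0.19, against -0.01 for all genes. Under the deposited scaling 5 of 7 alpha, 4 of 9 beta, 2 of 6 ATPase and 7 of 14 Psmd genes rose.

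The largest increases were those of 2 Psmd genes. Psmd11 had 33.7, 33.6 and 35.5 FPKM in P_ES50 libraries, against 23.1, 23.1 and 23.99 FPKM in P libraries, a log2 fold change of 0.53 (SE 0.07, adjusted p = 3.01e-05) by limma. Psmd5 had 32.3, 35.99 and 31.3 FPKM in P_ES50 libraries, against 24.4, 22.9 and 22.6 FPKM in P libraries, with 0.49 (SE 0.08, adjusted p = 0.000189) by limma. Neither gene overlapped between the groups, and they had the largest and next largest increases of the 44. Psmd7 rose by 0.35 ± 0.04, Psmd1 by 0.23 ± 0.05, Psmc5 and Psmc1 by 0.29 ± 0.06 and 0.27 ± 0.04, Psma7 and Psma6 by 0.28 ± 0.06 and 0.27 ± 0.06, and Psmb5 and Psmb1 by 0.24 ± 0.04 and 0.20 ± 0.05 (log2, SE). Of the assembly chaperones Psmg1 and Psmg3 rose, by 0.27 ± 0.06 and 0.38 ± 0.12; Psmg3 lost its call in limma without P replicate 2 or any of the 3 P_ES50 libraries (adjusted p = 0.125, 0.064, 0.0616 and 0.0534). Psme4 fell to 11.6, 12.8 and 11.9 FPKM in P_ES50 libraries, against 14.8, 15.8 and 14.9 FPKM in P libraries, without overlap (-0.30, SE 0.05, adjusted p = 0.000433 by limma). It was the only gene of the 44 called lower in P_ES50 cells under the deposited scaling.

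The difference between the responses was tested directly. The interaction, the response to 50 pulses with PE minus that without, was called higher for 5 of 44 genes (11.4%) and lower for 23 (52.3%), against 31.1% and 27.9% of all tested genes (59% in either direction). With scaling to total reads 43 of 44 were called higher, as were 10572 of all 11917 tested genes. Quantile normalization gave 9 higher and 9 lower of the 44, against 3146 and 3652 of all 11917 tested genes. The 5 genes with a higher response with PE were Psmd5 (1.09, SE 0.11, adjusted p = 3.91e-07), Psmd11 (0.68, SE 0.09, adjusted p = 1.51e-05), Psmd1 (0.47, SE 0.06, adjusted p = 1.33e-05), Psmd3 (0.32, SE 0.06, adjusted p = 0.000478) and Psme4 (0.36, SE 0.07, adjusted p = 0.000549), by limma. The gain was largest for Psmd5, which was lowest in the ES50 libraries and highest in the P_ES50 libraries of all 6 groups by mean. Among the 23 with a lower response were Psmb4 (-0.85 ± 0.07), Psmb5 (-0.60 ± 0.06), Psma7 (-0.58 ± 0.09), Psmc1 (-0.46 ± 0.06), Psmd9 (-0.58 ± 0.10), Psmf1 (-0.69 ± 0.09), Psmg3 (-1.09 ± 0.16) and Psmc3ip (-1.37 ± 0.18). Of the 16 tested core genes 13 had a lower response with PE and 0 a higher one. The interaction also followed length, with a Spearman correlation of 0.68 across the 44 genes and 0.22 across nuclear genes, and the mitochondrial share of reads differed between ES50 and P_ES50 libraries by the values given above; their part in the interaction was not tested. For 10 pulses the interaction was called for 0 of 44 genes by limma, against 0.906% of all genes (0.562% higher and 0.344% lower). There 1 gene had an unadjusted p under 0.05 by limma, a threshold at which no share of all genes was taken. Voom called 1, Psmd9 (adjusted p = 0.037), against 788 of all 11917 tested genes.

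**Figure D5:**
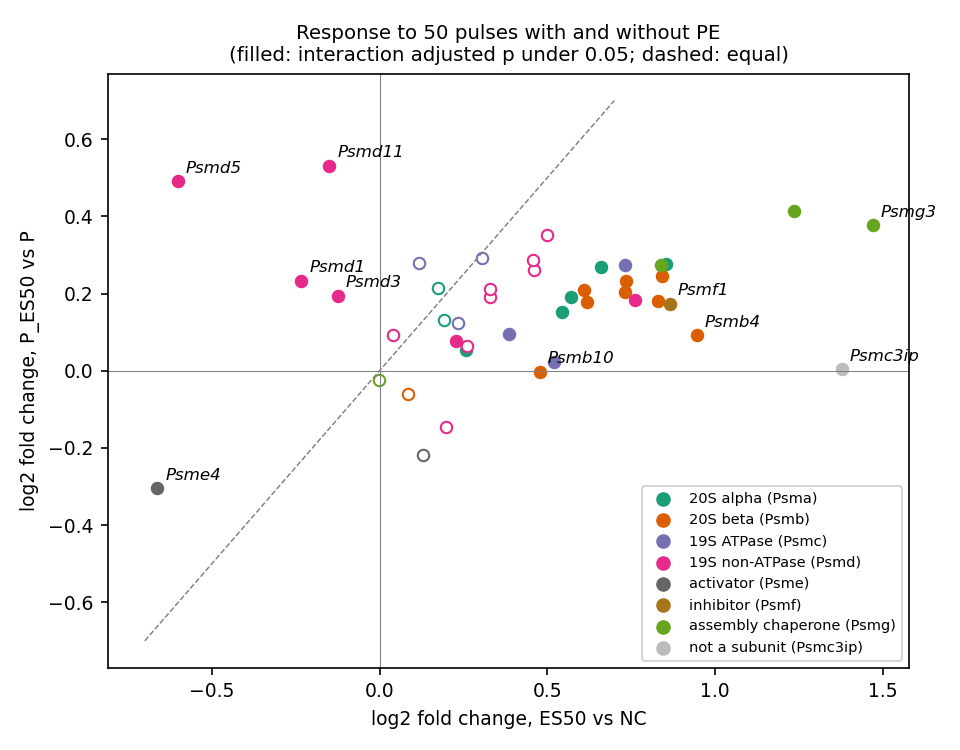
Log2 fold change of each tested proteasome gene after 50 pulses with PE (vertical) against that without PE (horizontal), coloured by role; filled points have an interaction at adjusted p under 0.05 and the dashed line marks equal responses. Psmd5, Psmd11, Psmd1 and Psmd3 lie upper left and most core genes lie right of the line under the deposited scaling (total-read scaling turned the lower interactions to higher ones).

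Several partner genes of the proteasome also had interactions at 50 pulses. Zfand2a averaged 188 ± 4.39 FPKM in P_ES50 cells, against 79.4 ± 2.86 FPKM in P cells, and 29.3 ± 5.36 FPKM in ES50 cells, against 112 ± 1.85 FPKM in NC cells. Its interaction was 3.14 (SE 0.12, adjusted p = 6.72e-12) by limma. Nfe2l2, the oxidative stress factor related to Nfe2l1, averaged 67.5 ± 0.662 FPKM in P_ES50 cells, against 43.2 ± 1.07 FPKM in P cells, and 22.6 ± 1.41 FPKM in ES50 cells, against 48.9 ± 0.717 FPKM in NC cells. The interactions of Nfe2l2 (1.71 ± 0.06), Zfand5 (1.76 ± 0.07) and Vcp (0.59 ± 0.05) were positive too (log2, SE, called by limma). In all, the interaction was called higher and lower for 5 and 3 of 12 proteasome-associated genes, 2 and 1 of 5 control genes, 3 and 3 of 11 ubiquitin genes and 6 and 2 of 11 antigen processing identifiers, against 31.1% and 27.9% of all tested genes. The lower ones included Shfm1 (-0.58 ± 0.12), Ngly1 (-0.58 ± 0.16), Ubqln1 (-0.36 ± 0.06) and Stat2 (-1.03 ± 0.13). Of all tested genes 14.1% rose and 14.2% fell with PE, and 31.9% rose and 40.1% fell without PE, so that several of the list counts without PE were near those shares. With 50 pulses 6 of 12 proteasome-associated genes rose and 0 fell with PE, and 5 rose and 4 fell without PE. Shfm1, a small lid subunit, was among those that rose without PE (0.96 ± 0.08), and Zfand5 among those that fell (-1.29 ± 0.05). Of the 5 control genes 2 rose and 1 fell with PE, and 1 rose (Ngly1, 0.51 ± 0.11) and 2 fell without PE (Vcp, -0.34 ± 0.03, and Nfe2l2). Of the 11 ubiquitin genes 3 rose with PE, and 5 rose and 3 fell without PE. When values were scaled to total reads, the increases of Shfm1 and Ngly1 without PE and of Zfand5, Nfe2l2 and Vcp with PE became decreases, whereas that of Zfand2a with PE remained at 0.34.

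In P_ES50 against P cells 6 of the 11 antigen processing identifiers fell, against 14.2% of all tested genes. In ES50 against NC cells 1 rose and 9 fell, against 31.9% and 40.1% of all tested genes. Tap1 averaged 6.20 ± 0.541 FPKM in P_ES50 cells, against 8.94 ± 0.296 FPKM in P cells, and 1.44 ± 0.179 FPKM in ES50 cells, against 6.77 ± 0.0423 FPKM in NC cells. Its log2 fold changes by limma were -0.47 (SE 0.07, adjusted p = 0.000178) with PE and -1.67 (SE 0.07, adjusted p = 9.61e-12) without PE, with an interaction of 1.20 (SE 0.10, adjusted p = 7.07e-08). Tapbp, which loads peptides on MHC class I, and Erap1, which trims them, fell in ES50 cells, with log2 fold changes of -1.80 ± 0.08 and -1.49 ± 0.07 (SE). B2m fell in P_ES50 cells (-0.22 ± 0.04). Psmb10 did not follow Tap1: it had 39.3, 48.5 and 34.99 FPKM in P_ES50 libraries, which overlapped with the P libraries, and 46.1, 55.7 and 38.5 FPKM in ES50 libraries, all above the NC libraries (0.48, SE 0.12, adjusted p = 0.00177 by limma under the deposited scaling).

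Some values depend on how reads of copies were assigned. Pomp, which chaperones core assembly, averaged 2.60 ± 0.225 FPKM in NC cells, while another locus, LOC100911238, averaged 47.3 ± 14.5 FPKM there. Reads of such copies may be split between them, so Pomp is not described further.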

How the data were processed

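RNA of 18 libraries of the established rat line H9C2, in 6 groups of 3, was sequenced after poly-T selection from 1 µg of RNA, per the labels' protocols. The deposited values are FPKM per gene; the submitters' processing notes name build Rnor 6.0, and no source used here gives the aligner, the counting rule or strandedness. Low FPKM are whole multiples of 1 read in each library (100% of values within 0.01), so reads were recovered from them: 14004929 to 17247201 per library, which limits precision most in ES50 libraries (1230554 to 1466851 nuclear reads).

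The members and gene lists were chosen with earlier results of these data known. Genes with at least 1 FPKM in at least 3 libraries (11917) were fitted as log2(FPKM + 1) by group with limma 3.58.1 (R 4.3.3, trended variance), over all 18 libraries, with Benjamini-Hochberg adjustment in each of 7 contrasts and a threshold of 0.05. The procedure was tested on simulated data. Named genes are, per contrast and role class, up to 4 called genes with the smallest adjusted p, those called against most of their class, and catalytic, activator and assembly genes; up to 4 called genes per pathway list were named likewise. Genes outside this rule (Psma4, Psmb3 and Psmd7 beside the interferon letters, LOC100911238, and the genes named for a lower interaction in the pathway lists) were chosen after their values were seen. Alternatives were another pseudocount, other filters and scalings, voom on the recovered reads, a replicate block, a fit to the compared groups only and leaving out each library; a fit without the ES50 libraries was added after seeing the data. Some genes of the pathway lists are not reported here, and the counts of these lists leave them out.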

Additional observations from a re-analysis of the deposited data

Results flagged for a closer look

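The response of several genes to pulses differed with PE, by limma's interaction term (response with PE minus response without PE, log2 scale, deposited scaling). For 10 pulses this held for Zfand2a at 0.5941. For 50 pulses, among proteasome genes, it was positive for Psmd5 at 1.0937, Psmd11 at 0.6819, Psmd1 at 0.4674, Psme4 at 0.3595 and Psmd3 at 0.3197. It was negative for Psmc1 at -0.4603, Psma7 at -0.5763, Psmd9 at -0.577, Psmb5 at -0.5985, Psmf1 at -0.6915, Psmb4 at -0.8527, Psmg3 at -1.093 and Psmc3ip at -1.3736. Among partner genes it was positive for Zfand2a at 3.1417, Zfand5 at 1.7632, Nfe2l2 at 1.7122, Tap1 at 1.2035 and Vcp at 0.5888. The negative values became positive with scaling to total reads. The mitochondrial share of reads was 48.6% in P_ES50 libraries and 92.1% in ES50 libraries, and its part in these differences was not tested.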

How the results depend on the processing

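The counts of proteasome genes called at an adjusted p under 0.05 depended most on the scaling. With scaling to total reads, higher and lower calls were 0 and 44 in both ES50 against NC and P_ES50 against P. They were 43 and 0 for the interaction at 50 pulses. In P against NC 9 were higher, in P_ES10 against P 3 were higher and 9 lower, and in ES10 against NC 1 was lower. Of all 11917 tested genes that scaling called 2431 higher and 558 lower in P against NC. It called 1521 and 2875 in P_ES10 against P, and 920 and 761 in ES10 against NC. That scaling reversed the median of the tested genes to -2.93 (ES50 against NC), 0.10 (P against NC), -0.058 (P_ES10 against P), -0.69 (P_ES50 against P), -0.031 (interaction at 10 pulses) and 2.17 (interaction at 50 pulses), and the median of P_ES10 against P was -0.043 with nuclear-read scaling and -0.030 with quantile normalization. Single log2 fold changes that total-read scaling reversed were, in ES50 against NC, Psma7 -2.64, Psma2 -2.92, Psmb4 -2.55, Psmb5 -2.62, Psmb1 -2.76, Psmc1 -2.75, Psmc3 -2.94, Psmd7 -2.94, Psmd9 -2.59, Psmd8 -3.01, Psmf1 -2.42, Psmg3 -1.88, Psmg4 -2.03, Psmg1 -2.43, Psmc3ip -1.44, Shfm1 -2.53, Ngly1 -2.16; in P_ES50 against P, Psma7 -0.62, Psma6 -0.62, Psmb5 -0.65, Psmb1 -0.69, Psmc1 -0.62, Psmc5 -0.60, Psmd11 -0.34, Psmd7 -0.54, Psmd5 -0.38, Psmd1 -0.65, Psmg1 -0.59, Psmg3 -0.48, Zfand5 -0.42, Nfe2l2 -0.25, Vcp -0.64, Nploc4 -0.43; and for the interaction at 50 pulses, Psma7 2.02, Psmb4 1.75, Psmb5 1.98, Psmc1 2.13, Psmd9 1.90, Psmf1 1.73, Psmg3 1.40, Psmc3ip 0.68. The total-read scaling holds mitochondrial reads in the divisor by construction.

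Nuclear-read scaling gave 1 higher and 5 lower in ES10 against NC and 6 lower in P_ES10 against P. Quantile normalization gave 19 higher and 10 lower in ES50 against NC and 11 higher in P_ES50 against P. For the interaction at 50 pulses it gave 9 higher and 9 lower. It gave 5, 2 and 7 lower in ES10 against NC, P against NC and P_ES10 against P. Of all tested genes it called 859 lower in P against NC. Voom on recovered reads gave 7 higher and 2 lower in ES10 against NC, and 3 and 5 in P against NC. It gave 5 lower in P_ES10 against P, 2 lower in P_ES50 against P and 1 higher for the interaction at 10 pulses. Over all tested genes these last counts were 2419 lower, 2616 lower and 365 higher. A fit to the compared groups only gave 7 higher and 4 lower in ES10 against NC, 2 and 3 in P against NC, and 4 lower in P_ES10 against P. Over all tested genes that fit gave 1525 higher and 721 lower, 1420 and 1304, and 2223 lower. The fit without the ES50 libraries, chosen after seeing the data, gave 8 and 3, 2 and 5, and 5 lower in the same comparisons, and 2 lower in P_ES50 against P. Over all tested genes it gave 1699 and 875, 1641 and 1559, and 2218 lower, and 2805 lower in P_ES50 against P. The cause of these shifts was not tested. Leaving out 1 library gave 1 to 3 higher in ES10 against NC and 0 to 2 lower in P_ES10 against P.

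Same-numbered libraries correlated at 0.034 to 0.101 in their deviations in ES10 against NC, where each of the 3 matched its own number best, a hint from the data, and at -0.088 to 0.035 in the other comparisons; the numbers were not taken to pair the samples. With the replicate block, 4 genes were higher in ES10 against NC, 5 in P_ES10 against P and 21 in P_ES50 against P. Over all tested genes the block gave 694, 1528 and 1649 higher. The call of Psma1 in P_ES10 against P was lost with it (adjusted p = 0.0587 by limma). Depth limits the ES50 values of low genes: Psmd10 rests on 10 reads there.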

Other observations

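The 5 genes outside the family whose log2(FPKM + 1) was most alike to the summed level of the 19 core genes, over 18 libraries, were Mrpl17 (Pearson r = 0.995), a mitochondrial ribosomal protein gene, the actin regulators Cfl1 (0.995) and Pfn1 (0.995), Fkbp1a (0.993) and Dynll1 (0.993). Over the 15 libraries without ES50 the values were 0.951, 0.946, 0.950, 0.947 and 0.937. The libraries share their scaling, and these correlations are a description.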
